A study of Mus musculus with 12 samples.

Results

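The 10 genes described here encode the transcription factors that give midbrain dopaminergic (DA) neurons their identity: Foxa1, Foxa2, Lmx1a, Lmx1b, Nr4a2, Pitx3, En1, En2, Otx2 and Sox6. They were taken from the array by symbol, as all probe sets annotated to exactly 1 of these genes, which gave 19 probe sets of 45037 tested (10 genes of 18193). Nr4a2 had 6 probe sets, Sox6 had 4, Lmx1b had 2, and each of the other 7 genes had 1. RNA came from the whole dissected ventral tegmental area (VTA) of C57BL/6 mice (strain C57, wild type in the labels) at 2 months (young), 10 months (middle aged) and 18 months (late middle-aged). There were 4 arrays at each age and 5 mice pooled for each array, so the errors below measure the spread between pools. Young arrays 3 and 4 were nearly identical (r = 0.998, with 1 probe set apart by more than 1 on the log2 scale, against 85 to 4905 probe sets in the 17 other pairs of arrays of 1 age), and their mean was counted as 1 sample. The samples were thus 3 young, 4 middle-aged and 4 late middle-aged ones. The dissected tissue holds DA neurons together with other neurons and glia, and in such bulk RNA fewer cells of a type and less RNA per cell cannot be told apart.

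Midbrain DA neurons arise from the floor plate of the embryonic midbrain. Foxa1 and Foxa2, forkhead proteins that can open chromatin, and Lmx1a and Lmx1b, LIM homeodomain proteins, set up the progenitors. En1 and En2, the engrailed homeodomain proteins, mark the midbrain-hindbrain territory, and Nr4a2 (Nurr1, an orphan nuclear receptor) and Pitx3 (a bicoid-type homeodomain protein) then switch on the genes for dopamine synthesis and transport. Most of these factors stay on in the adult neuron, where mouse mutants have linked them to its upkeep. Otx2 and Sox6 divide the adult population, Otx2 being found in a part of the VTA neurons and Sox6 mainly in neurons of the substantia nigra and the neighbouring lateral VTA.

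The sequences upstream of 4 of these genes are shown because the age difference of Foxa2, En1 and Nr4a2 carries the results below, and because Foxa1, the close relative of Foxa2, did not pass the same test. They are the 250 bases before the transcription start in RefSeq (build GRCm38.p6, given 5′ to 3′ on the strand of the gene), and capitals mark the letters of the searched motifs. The Foxa1 sequence is chr12:57546112-57546361 (minus strand), that of Foxa2 chr2:148046970-148047219 (minus strand, 1 of its 3 listed starts), that of En1 chr1:120602237-120602486 (plus strand) and that of Nr4a2 chr2:57124004-57124253 (minus strand).
Foxa1: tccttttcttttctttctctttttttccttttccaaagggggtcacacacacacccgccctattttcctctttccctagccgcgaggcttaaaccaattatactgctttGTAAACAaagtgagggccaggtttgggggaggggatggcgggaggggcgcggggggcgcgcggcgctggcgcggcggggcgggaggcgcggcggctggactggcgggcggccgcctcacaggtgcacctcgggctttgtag
Foxa2: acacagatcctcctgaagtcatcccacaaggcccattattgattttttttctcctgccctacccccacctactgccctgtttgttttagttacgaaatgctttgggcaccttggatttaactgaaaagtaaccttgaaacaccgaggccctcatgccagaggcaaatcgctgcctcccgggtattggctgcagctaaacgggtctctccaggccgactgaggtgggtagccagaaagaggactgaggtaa
En1: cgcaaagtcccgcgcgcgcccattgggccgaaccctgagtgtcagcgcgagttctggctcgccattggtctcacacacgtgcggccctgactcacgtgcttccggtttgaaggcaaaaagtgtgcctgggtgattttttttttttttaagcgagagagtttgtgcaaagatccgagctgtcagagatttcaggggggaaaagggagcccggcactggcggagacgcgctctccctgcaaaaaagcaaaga
Nr4a2: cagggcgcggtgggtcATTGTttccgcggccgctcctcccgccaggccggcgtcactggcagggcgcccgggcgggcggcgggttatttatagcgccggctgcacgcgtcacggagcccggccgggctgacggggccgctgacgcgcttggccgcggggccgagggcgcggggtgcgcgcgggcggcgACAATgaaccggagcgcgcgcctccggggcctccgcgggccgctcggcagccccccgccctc
The capitals in the Foxa1 sequence are the forkhead motif TGTTTAC on the opposite strand, 141 bases before the start. Those in the Nr4a2 sequence are the Sox core ACAAT, once on each strand, 234 and 62 bases before the start. No letters are capital in the Foxa2 and En1 sequences.

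Across all RefSeq promoter windows (32851 windows of 300 bases, both strands searched), TGTTTAC was in 3.65%, the homeodomain core TAATTA in 5.29%, the bicoid-type motif TAATCC in 7.06%, the Nr4a2 core AAGGTCA in 4.72% and ACAAT in 31.0%. The table held 19 windows for 9 of the 10 genes (none for En2). TGTTTAC was in 1 of these windows (Foxa1), TAATTA in 2 (Otx2), TAATCC in 2 (Otx2 and Sox6), AAGGTCA in 2 (Sox6) and ACAAT in 6 (Nr4a2, Otx2 and Sox6). A match is a stretch of letters and not a measured binding site.

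At 18 against 2 months, the VTA samples had less Foxa2, En1 and, at 2 of 6 probe sets, Nr4a2, and more of 1 of 4 probe sets of Sox6. None of these differences passed the test without young array 1 or with either control measure described below as a covariate. With limma and Benjamini-Hochberg adjustment over all 45037 probe sets, 5 of the 19 probe sets passed (adjusted p under 0.05 and a change above 1.3-fold), 1 higher and 4 lower. That is 26.3% of them, against 7.46% of all probe sets (4.55% higher and 2.91% lower). The brightest probe set of a gene is the one with the highest mean over all arrays. At these probe sets, 2 of the 10 genes passed, both lower, against 8.82% of all genes (5.76% higher and 3.06% lower). The median log2 change was −0.16 over the 19 probe sets and −0.06 over all probe sets, and 15 of the 19 changes were below 0. The samples of the 2 ages did not overlap in 6 of the 19 probe sets (1 higher and 5 lower), which is 31.6% against 23.6% of all probe sets (10.4% higher and 13.1% lower). At 10 against 2 months, none of the 19 passed, against 1.36% of all probe sets (at the brightest probe sets, 1.48% of all genes, 0.484% lower). At an unadjusted p under 0.05 there were 5 of the 19, against 7042 of all 45037 probe sets, and 5 did not overlap (1 higher and 4 lower), against 12.6% of all probe sets (6.35% higher and 6.25% lower). At 18 against 10 months, none passed (0.00222% of all, a single probe set), 2 were at an unadjusted p under 0.05 (2280 of all 45037), and the ages overlapped in all 19, whereas 2.73% of all probe sets did not overlap (1.11% higher and 1.62% lower). All comparisons with 2 months share the young samples.

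**Figure D1:**
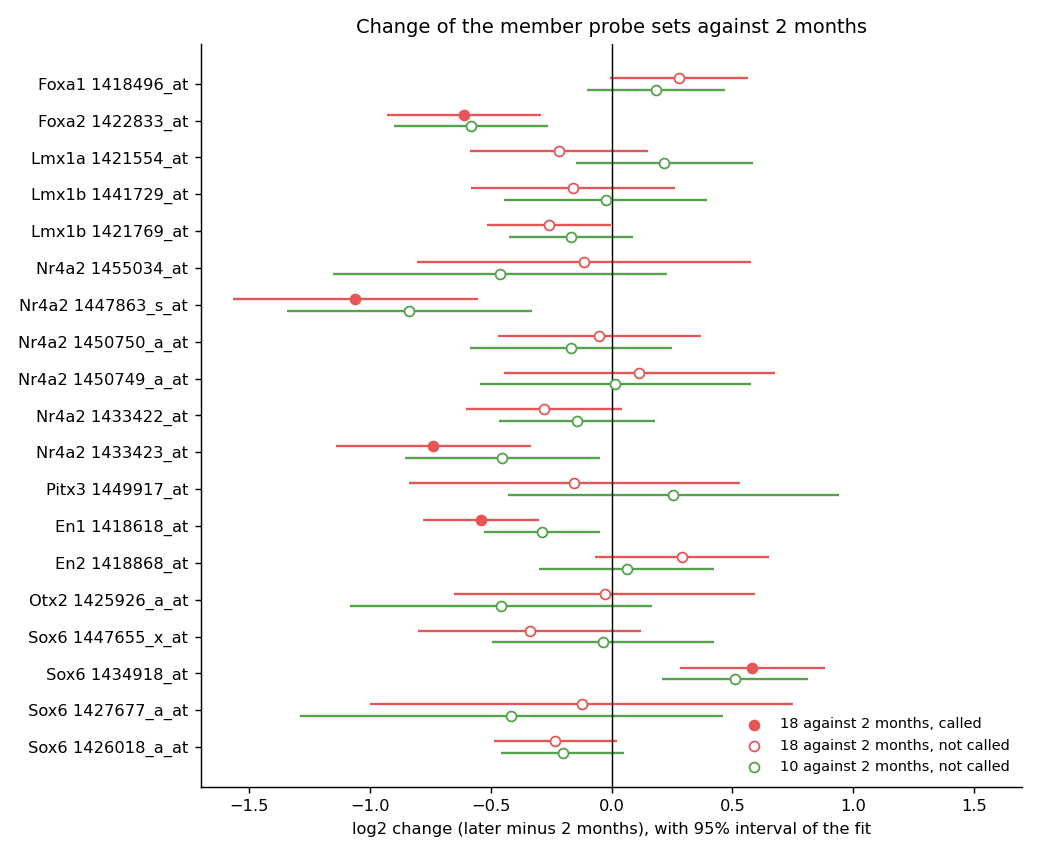
Log2 change at 18 months (red) and 10 months (green) against 2 months for the 19 probe sets, with the 95% interval of the limma fit (n = 4, 4 and 3 samples). Filled points passed the test, namely Foxa2, En1, 2 probe sets of Nr4a2 and, on the higher side, 1 of Sox6, all at 18 months. No change at 10 months passed.

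Control measures of the arrays also differed between these ages. Whether labelling, RNA integrity or RNA amount lay behind this was not tested. The 3′ minus 5′ difference of the Actb and Gapdh control probe sets measures how evenly a transcript was read along its length. On the log2 scale it was 1.98 ± 0.24 at 18 months (SD, n = 4) and 2.15 ± 0.34 at 10 months (SD, n = 4). At 2 months it was 3.47 ± 0.17 (SD, n = 3). No sample of a later age overlapped with a young one (2-sided exact permutation p = 0.0286 at 10 and at 18 months, which is the lowest value possible with so few samples, and 0.0514 after adjustment for 9 tests). Poly-A controls spiked into the RNA averaged 6.90 ± 0.33 at 18 months, against 6.06 ± 0.09 at 2 months (exact permutation p = 0.0286, n = 4 and 3). With either measure as a covariate, 0 of the 19 probe sets and 0 of all probe sets passed at 18 against 2 months. The covariates also widened the errors, the median SE over all probe sets being 0.41 with the 3′ minus 5′ and 0.31 with the poly-A covariate, against 0.15 without one, so that a lost call does not by itself show a smaller change. Age and these control measures cannot be told apart for the changes from 2 months, because neither measure overlapped between these ages. At 18 against 10 months the 3′ minus 5′ difference overlapped, but age and the poly-A difference cannot be told apart there.

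Foxa2 and its relative Foxa1 are forkhead factors of the floor plate, and Foxa2 is needed in adult mice for the upkeep of DA neurons. Foxa2 (1422833_at) read 9.70, 9.98 and 9.71 in the young samples, 9.07, 9.37, 9.01 and 9.42 at 10 months and 9.41, 9.22, 9.17 and 8.94 at 18 months on the log2 scale. Every sample at 10 and 18 months lay below every young sample, and the later ages overlapped widely. The means were 9.19 ± 0.20 at 18 months (SD, n = 4) and 9.22 ± 0.21 at 10 months (SD, n = 4), against 9.80 ± 0.16 at 2 months (SD, n = 3). Foxa2 fell by 0.61 ± 0.15 (SE) on the log2 scale at 18 against 2 months, which is 1.53-fold (limma adjusted p = 0.0290). At 10 months the difference was already −0.58 ± 0.15, with an adjusted p of 0.0741. Nearly all of the difference of Foxa2 from the young samples was thus present at 10 months, and the later ages differed by −0.03 ± 0.13 (18 minus 10 months, adjusted p = 0.964). The limma test of unequal change in the 2 intervals did not pass for Foxa2 (adjusted p = 0.898). The call of Foxa2 rested on several single arrays. Its adjusted p at 18 against 2 months lay between 0.0593 and 0.103 without young array 1 or 2 or without 18-month array 2, 3 or 4 (changes of −0.66, −0.52, −0.62, −0.61 and −0.53). With the 3′ minus 5′ covariate the change of Foxa2 was −0.18 ± 0.40, and with the poly-A covariate −0.85 ± 0.30.

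Foxa1 (1418496_at) read 11.14, 10.98 and 11.38 at 2 months, 11.60, 11.28, 11.27 and 11.24 at 10 months and 11.59, 11.47, 11.43 and 11.30 at 18 months. The lowest young samples lay below all later ones, but the third young sample lay among them. Its change was 0.28 ± 0.13 at 18 against 2 months (95% interval −0.01 to 0.57, adjusted p = 0.223) and 0.18 ± 0.13 at 10 against 2 months (adjusted p = 0.571). The interval does not include the size of the change of Foxa2. The difference between both genes was not tested.

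**Figure D2:**
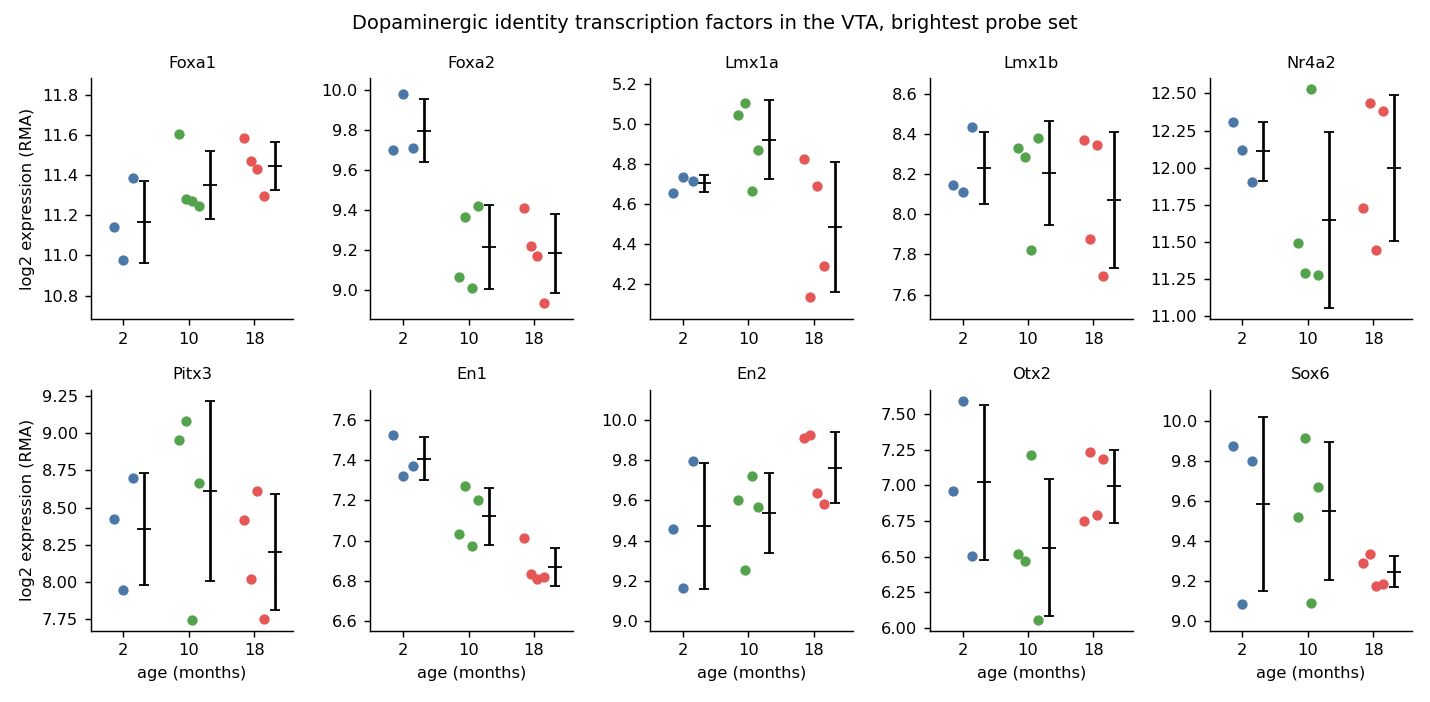
RMA log2 expression of each of the 10 genes at its brightest probe set by age (2, 10 and 18 months), 1 point per sample, with the mean and SD to the right of the points (n = 3, 4 and 4, young arrays 3 and 4 averaged). The vertical scale differs between panels and does not start at 0. In Foxa2 and En1 the samples at 18 months lie below the young ones, and in the other 8 panels these ages overlap.

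Lmx1a and Lmx1b act together in the progenitors and in adult DA neurons, and Lmx1b is also needed in serotonergic neurons. Lmx1a (1421554_at) was read near the lower quartile of the arrays (4.48 to 4.65), at 4.66, 4.74 and 4.71 in young samples, 5.04, 5.10, 4.67 and 4.87 at 10 months and 4.82, 4.13, 4.69 and 4.29 at 18 months. Values at this level leave little room above the background of the array. The change of Lmx1a was −0.22 ± 0.17 at 18 against 2 months (adjusted p = 0.479) and 0.22 ± 0.17 at 10 against 2 months (adjusted p = 0.608). At 18 against 10 months it was −0.44 ± 0.16, with an adjusted p of 0.847.

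Lmx1b was read at 8.14, 8.11 and 8.44 in young samples, 8.33, 8.29, 7.82 and 8.38 at 10 months and 8.37, 7.88, 8.35 and 7.69 at 18 months (1441729_at). The 3 ages overlapped, and 18-month arrays 2 and 4 and 10-month array 3 were the lowest. The change was −0.16 ± 0.19 at 18 against 2 months (95% interval −0.58 to 0.26, adjusted p = 0.676). The other probe set (1421769_at), read below the median of the arrays, changed by −0.26 ± 0.12 (adjusted p = 0.208). Tph2, the enzyme of serotonin synthesis in neurons, varied more between pools than Lmx1b. It averaged 7.53 ± 0.98 at 18 months and 6.11 ± 1.50 at 10 months, against 7.97 ± 1.58 at 2 months, and 0 of the 4 measured serotonergic markers passed. The mean over these 4 markers ran over 6.19 to 7.48 at 18 months and 5.90 to 7.07 at 10 months, against 6.63 to 7.82 at 2 months. Their part in the Lmx1b values was not tested.

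Nr4a2 is a regulator of Th, Slc6a3 and Slc18a2, and in many other neurons it is switched on by activity. Its 6 probe sets did not move alike. The brightest (1455034_at) read 12.31, 12.12 and 11.91 at 2 months, 11.49, 11.29, 12.53 and 11.28 at 10 months and 11.73, 12.43, 11.44 and 12.38 at 18 months. The pools of 1 age were up to more than 1 apart, and the ages overlapped. The change was −0.11 ± 0.32 at 18 against 2 months (95% interval −0.80 to 0.58, adjusted p = 0.872).

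The second brightest probe set of Nr4a2 (1447863_s_at) read 11.47, 11.20 and 11.09 at 2 months, 10.65, 10.16, 11.01 and 9.85 at 10 months and 10.01, 10.27, 10.14 and 10.36 at 18 months. All later samples lay below the young ones, with 10-month array 3 the closest to them. It fell by 1.06 ± 0.23 on the log2 scale at 18 against 2 months, which is 2.08-fold (adjusted p = 0.0211), and its change at 10 against 2 months was −0.84 ± 0.23 (adjusted p = 0.0976). The suffix _s_at marks probes that may match more than 1 transcript. Without young array 1 (−0.95, adjusted p = 0.123), young array 2 (−1.09, adjusted p = 0.0573), 18-month array 1 (−0.998, adjusted p = 0.0512) or 18-month array 3 (−1.04, adjusted p = 0.0504) this probe set of Nr4a2 did not pass at 18 against 2 months. Without 10-month array 3 it passed at 10 against 2 months as well (−1.03, adjusted p = 0.0318). With the 3′ minus 5′ covariate the change was −1.82 ± 0.62 at 18 against 2 months, which did not pass, and with the poly-A covariate −1.13 ± 0.50.

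A dim probe set of Nr4a2 (1433423_at) read 6.37, 6.05 and 6.13 at 2 months, 5.49, 6.29, 5.61 and 5.54 at 10 months and 5.67, 5.34, 5.37 and 5.41 at 18 months. The 18-month samples were all below the young ones, while 10-month array 2 lay among the young. It fell by 0.74 ± 0.18 at 18 against 2 months, which is 1.67-fold (adjusted p = 0.0344). The adjusted p of this Nr4a2 probe set was between 0.0663 and 0.174 without young array 1 or 2 or 18-month array 2, 3 or 4 (changes of −0.64, −0.81, −0.70, −0.71 and −0.73), and 0.0630 without young arrays 3 and 4 (−0.76). Without 10-month array 2 it passed at 10 against 2 months (−0.64, adjusted p = 0.0409). With the 3′ minus 5′ covariate its sign turned, to 0.13 ± 0.45, and with the poly-A covariate it was −0.77 ± 0.40.

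The other 3 probe sets of Nr4a2 changed by −0.05 ± 0.19 (1450750_a_at, adjusted p = 0.907), 0.12 ± 0.26 (1450749_a_at, adjusted p = 0.833) and −0.28 ± 0.15 (1433422_at, adjusted p = 0.284) at 18 against 2 months. At 1433422_at the 18-month samples lay just below the young ones (highest 6.315, against a lowest young value of 6.318). The difference between probe sets was tested itself, each weaker one minus the brightest of its gene. For 1447863_s_at it was −0.95 ± 0.22 (limma adjusted p = 0.0118 over 16752 such differences), and for 1433423_at it was −0.63 ± 0.39 (adjusted p = 0.278). The change of Nr4a2 therefore depends on which probe set is read. Of all 16752 such differences on the array, 21.7% passed. As the mean of all 6 probe sets, Nr4a2 changed by −0.35 ± 0.14 at 18 against 2 months (adjusted p = 0.152).

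**Figure D3:**
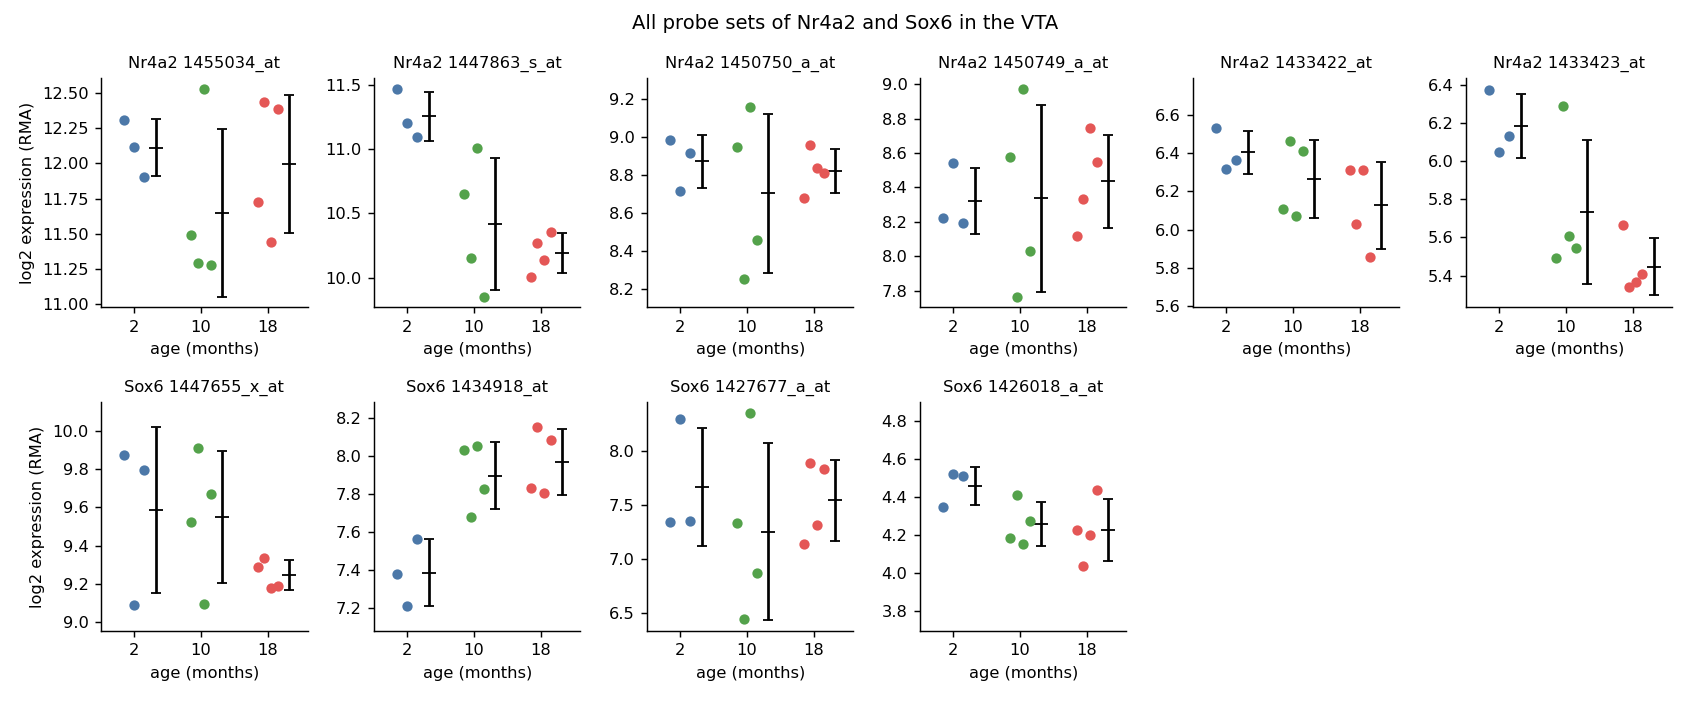
RMA log2 expression by age (2, 10 and 18 months) at all 6 probe sets of Nr4a2 (upper row) and all 4 of Sox6 (lower row), each row from the brightest to the dimmest, with 1 point per sample and the mean and SD beside the points (n = 3, 4 and 4). Vertical scales differ between panels and do not start at 0. Nr4a2 1447863_s_at, 1433423_at and, by a narrow margin, 1433422_at are lower at 18 than at 2 months without overlap. Sox6 1434918_at is higher without overlap, while the brightest probe set of each gene overlaps between ages.

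Pitx3 is needed for the survival of substantia nigra neurons in the mouse and drives Th together with Nr4a2. Pitx3 (1449917_at) read 8.42, 7.95 and 8.70 at 2 months, 8.95, 9.08, 7.75 and 8.67 at 10 months and 8.42, 8.02, 8.61 and 7.75 at 18 months. No age stood apart, and the pools of each age covered much of the range over all samples. The change was −0.15 ± 0.31 at 18 against 2 months (95% interval −0.84 to 0.53, adjusted p = 0.815), 0.26 ± 0.31 at 10 against 2 months (adjusted p = 0.784) and −0.41 ± 0.29 at 18 against 10 months (adjusted p = 0.847). A change of the size seen for En1 lies within the first interval.

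En1 is needed for the survival of adult DA neurons, and mice with 1 functional copy lose them slowly. En1 (1418618_at) read 7.53, 7.32 and 7.37 at 2 months, 7.03, 7.27, 6.97 and 7.20 at 10 months and 7.01, 6.83, 6.81 and 6.82 at 18 months. The ages followed each other downwards: all later samples lay below the young ones, and only 18-month array 1 reached into the range of 10 months. The means were 6.87 ± 0.10 at 18 months (SD, n = 4) and 7.12 ± 0.14 at 10 months (SD, n = 4), against 7.41 ± 0.11 at 2 months (SD, n = 3). En1 fell by 0.54 ± 0.11 on the log2 scale at 18 against 2 months, which is 1.45-fold (adjusted p = 0.0162). It changed by −0.29 ± 0.11 at 10 against 2 months (adjusted p = 0.221) and by −0.25 ± 0.10 at 18 against 10 months (adjusted p = 0.847). The steps of both intervals were of like size, and the test of unequal change did not pass for En1 (−0.03 ± 0.18, adjusted p = 0.985). The call was lost without young array 1 (−0.48 ± 0.12, adjusted p = 0.0994) and kept without each of the other arrays. With the 3′ minus 5′ covariate the change was −0.08 ± 0.28, and with the poly-A covariate −0.57 ± 0.24.

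En2, whose protein is interchangeable with that of En1 in mouse replacement experiments, read 9.46, 9.16 and 9.80 at 2 months, 9.60, 9.25, 9.72 and 9.57 at 10 months and 9.91, 9.92, 9.64 and 9.58 at 18 months (1418868_at). The samples of 18 months were in the upper part of the range but overlapped with both other ages. The change of En2 was 0.29 ± 0.17 at 18 against 2 months (95% interval −0.07 to 0.65, adjusted p = 0.319) and 0.06 ± 0.17 at 10 against 2 months (adjusted p = 0.920). En2 is also a gene of cerebellar granule cells. Of 8 cerebellar markers measured, Gabra6 and Cbln3 lay below the lower quartile of probe sets, while Pcp4, Car8 and Zic1 were well above it, and 1 (Zic1) fell at 18 against 2 months (by 1.21 ± 0.22). The mean over the 8 ran over 6.76 to 6.91 at 18 months, against 7.04 to 7.23 at 2 months. Their part in the En2 values was not tested.

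Otx2 holds down the dopamine transporter in the VTA neurons that carry it in the mouse, and it is a strong marker of the choroid plexus. Otx2 (1425926_a_at) read 6.96, 7.59 and 6.50 at 2 months, 6.51, 6.47, 7.22 and 6.05 at 10 months and 6.75, 7.24, 6.79 and 7.18 at 18 months. The pools of 1 age spread over more than the means of the ages differed. The change was −0.03 ± 0.29 at 18 against 2 months (95% interval −0.65 to 0.60, adjusted p = 0.966), −0.46 ± 0.29 at 10 against 2 months (adjusted p = 0.500) and 0.43 ± 0.26 at 18 against 10 months (adjusted p = 0.847). Of 8 choroid plexus markers measured, 4 (Folr1, Kl, Aqp1 and Slc4a5) lay below the lower quartile of probe sets. The mean over all 8 ran over 5.05 to 5.25 at 18 months and 5.14 to 5.37 at 10 months, against 5.21 to 5.46 at 2 months. Ttr, the main secreted protein of the choroid plexus, averaged 6.36 ± 0.64 at 18 months, against 8.29 ± 1.43 at 2 months (adjusted p = 0.122). The 1 choroid plexus gene that passed, Clic6, rose by 0.76 ± 0.19. The part of these cells in the Otx2 values was not tested.

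Sox6 is kept on in neurons of the substantia nigra and is needed for their specification in the mouse. Its brightest probe set (1447655_x_at, a suffix for probes that may cross-hybridise) read 9.87, 9.09 and 9.80 at 2 months, 9.52, 9.91, 9.09 and 9.67 at 10 months and 9.29, 9.33, 9.17 and 9.19 at 18 months. The 18-month samples were close together in the lower part of the range, and 1 young and 1 middle-aged sample lay below them. The change was −0.34 ± 0.21 at 18 against 2 months (adjusted p = 0.367).

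The next brightest Sox6 probe set, 1434918_at, went the other way. It read 7.38, 7.22 and 7.57 at 2 months, 8.03, 7.68, 8.05 and 7.83 at 10 months and 7.83, 8.15, 7.81 and 8.08 at 18 months, so that all later samples lay above the young ones. It rose by 0.58 ± 0.14 at 18 against 2 months, which is 1.50-fold (adjusted p = 0.0281), and its change at 10 against 2 months was 0.51 ± 0.14 (adjusted p = 0.0895). Without young array 1 or 2 or 18-month array 2 or 4 the adjusted p of this Sox6 probe set was 0.125, 0.0996, 0.0716 and 0.0681 (changes of 0.58, 0.50, 0.52 and 0.54). With the 3′ minus 5′ covariate its change was 0.46 ± 0.39, and with the poly-A covariate 0.43 ± 0.29. The difference between this and the brightest probe set of Sox6 was 0.92 ± 0.25 (adjusted p = 0.0242). The remaining Sox6 probe sets changed by −0.12 ± 0.40 (1427677_a_at, adjusted p = 0.890) and −0.23 ± 0.12 (1426018_a_at, near the lower quartile, adjusted p = 0.254). As the mean of its 4 probe sets, Sox6 changed by −0.03 ± 0.11 (adjusted p = 0.910).

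In all, 2 of the 9 differences between a weaker and the brightest probe set of a member gene passed at 18 against 2 months, against 21.7% of all such differences on the array. The number was 0 without young array 1 and 1 without 18-month array 2 or 4, and it was 0 with the 3′ minus 5′ covariate. At 10 against 2 months 0 of the 9 passed, against 6.67% of all.

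Within an age, the pools differed from each other in a pattern shared by many genes. The first principal component of the deviations from the age means, computed without the 10 genes, held 61.2% of the variance, and young array 2, 10-month array 3 and 18-month arrays 2 and 4 were on its positive side. Over the 11 samples the deviations of Pitx3 (r = −0.94) and Lmx1b (1441729_at, r = −0.90) ran against it, and those of Nr4a2 (1455034_at, r = 0.91), Otx2 (r = 0.85) and a dim Sox6 probe set (1427677_a_at, r = 0.95) ran with it. For the probe sets that passed at 18 against 2 months the correlation was −0.56 (Foxa2), −0.72 (En1), 0.76 (Nr4a2 1447863_s_at), −0.48 (Nr4a2 1433423_at) and 0.54 (Sox6 1434918_at). These values describe the same 11 samples, which share their normalisation, and carry no test.

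**Figure D4:**
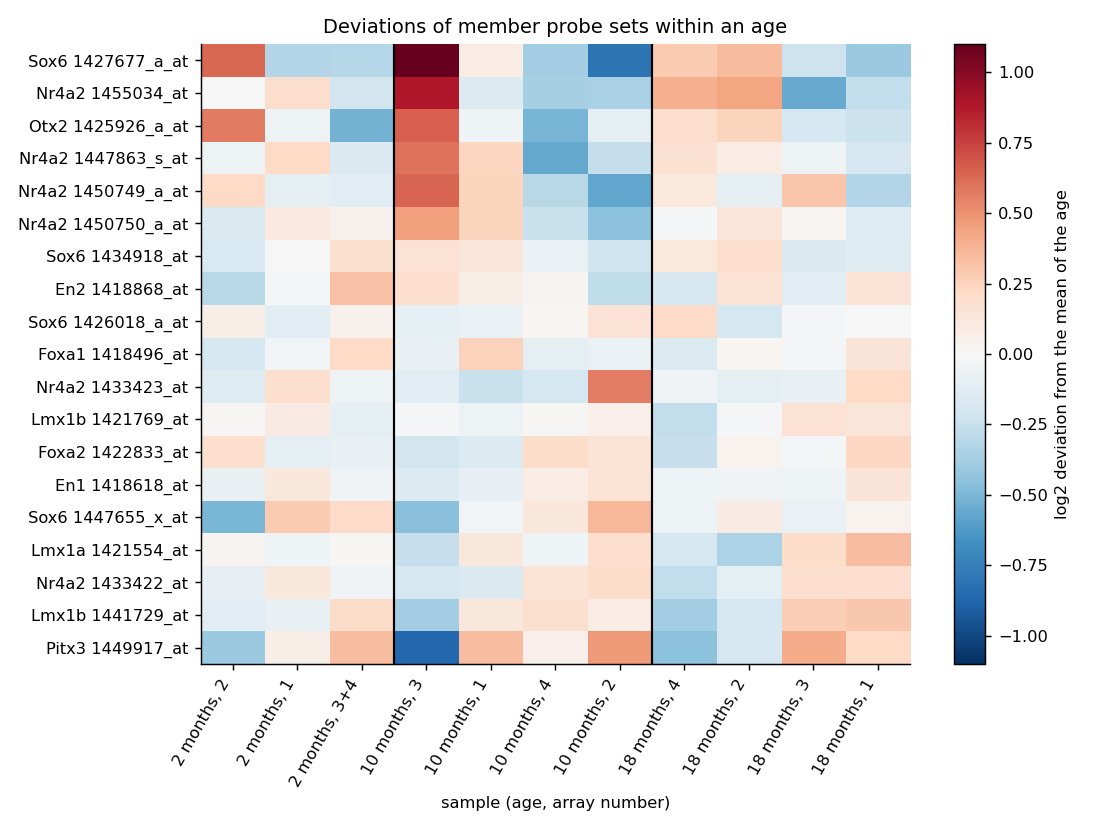
Deviation of each of the 19 probe sets (rows) from the mean of its age on the log2 scale (red above, blue below the mean) in the 11 samples (columns, grouped by age and ordered within an age by the first principal component of all other probe sets, highest first). The upper rows (Sox6 1427677_a_at, Nr4a2 1455034_at, Otx2) are high in 10-month array 3, where Pitx3 and Lmx1b 1441729_at at the bottom are low.

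Among the 10 genes at their brightest probe sets, the levels over the 11 samples were most alike for Lmx1b and Pitx3 (r = 0.85), Foxa2 and En1 (r = 0.81) and Nr4a2 and Otx2 (r = 0.80). Nr4a2 and Pitx3 ran opposite to each other (r = −0.86), as did Pitx3 and Otx2 (r = −0.82). The same probe sets followed the first principal component described above, Nr4a2 and Otx2 with it and Pitx3 and Lmx1b against it. Another Nr4a2 probe set (1433422_at) ran against this component (r = −0.83). Its part in the pair values was not tested. Over all genes, the levels most like those of Foxa2 were Sgk2 (r = 0.96), Pim3 (r = 0.96) and Nup133 (r = 0.95), and those most like En1 were Slc13a3 (r = 0.97), Cux2 (r = 0.97) and Foxo4 (r = 0.96). Foxa2 and En1 shared none of these genes, which says little because only the 3 most alike were listed for each. For Nr4a2 they were Atrx (r = 0.99), Dck (r = 0.98) and Tob2 (r = 0.98), and for Pitx3 Bscl2, Trp53i13 and Drg2 (r = 0.98 each). Foxa1 was most like Fam184a (r = 0.94), Ttc8 (r = 0.93) and Cblb (r = 0.91), and En2 most like Necab1 (r = 0.92), Fzd3 (r = 0.90) and Ahr (r = 0.89). The genes most like Foxa1 and En2 had lower correlations than those of the other members named so far. Lmx1b was most like Gm5617 (r = 0.98), C1qtnf4 (r = 0.96) and 1810064F22Rik (r = 0.96), and Lmx1a most like Igkv6-20 (r = 0.96), 4930526F13Rik (r = 0.95) and Smco2 (r = 0.92). Otx2 was most like Ptp4a2 (r = 0.96), Ezh2 (r = 0.96) and Pcmtd1 (r = 0.93), and Sox6 most like Cfap69 (r = 0.99), Cenpu (r = 0.96) and Mmachc (r = 0.95). With 11 samples and 18193 genes, high correlations are found for any gene, and these are given as a description.

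Genes of DA neuron function, many of them targets of these factors, were read beside them. Of 20 measured genes of DA neuron function, 4 rose and 0 fell at 18 against 2 months at their brightest probe sets. Of all genes 8.82% passed (5.76% higher and 3.06% lower). The median change was 0.34, against −0.02 over all genes, 0.43 over genes of neurons in general and 0.38 over astrocyte genes. It was 0.71 over microglial, 0.04 over glutamatergic and −0.13 over GABAergic genes, so a rise was not particular to this list. With 3.06% of all genes lower, a count of 0 among 20 is near the background, and 3 of the 20 had a change below 0 (Gch1, Kcnj6 and Nr4a1). The 4 that rose were Th, the rate-limiting enzyme of dopamine synthesis (0.84 ± 0.14, adjusted p = 0.00735), Chrna6, a nicotinic receptor subunit of DA neurons (0.68 ± 0.15), Maob, which breaks down dopamine (0.94 ± 0.15), and the calcium-binding Calb1 (0.70 ± 0.15). Slc6a3, the dopamine transporter, was bright in every sample (13.8 to 14.2), with a change of 0.20 ± 0.09 (adjusted p = 0.217). At 10 against 2 months 2 of the 20 passed (Th and Maob), both higher, against 1.48% of all genes (1% higher). Which cells of the dissected tissue carried the transcripts of this list, Maob among them, was not tested. Of 14 measured partners and targets of engrailed proteins, 2 rose and 0 fell, with a median change of 0.07. They were Ndufs1 (0.86 ± 0.17) and Ndufs3 (0.68 ± 0.16), both subunits of respiratory complex I. Engrailed proteins raise the translation of both in the mouse midbrain, whereas the array reads RNA. Several genes of this list had changes below 0 and were not called, among them Map1b (−0.39 ± 0.30) and Eif4e (−0.13 ± 0.10). A link to the change of En1 was not tested.

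Of 26 measured genes of midbrain patterning, 1 rose and 1 fell at 18 against 2 months (median change −0.12), a count near the share of all genes (8.82%). Gli2, a mediator of Shh signalling, fell by 0.71 ± 0.12 (adjusted p = 0.00925), and also at 10 against 2 months (by 0.62 ± 0.12), while Fgf20, a growth factor for DA neurons, rose by 0.59 ± 0.11. Of these genes 6 lay below the lower quartile of probe sets (Fgf8, Fgf17, Msx2, Gbx2, Corin and Ferd3l). Of 21 other transcription factors of the DA lineage, 0 rose and 3 fell (median change −0.06), where 3.06% of all genes fell. They were Pbx3 (by 0.60 ± 0.14) and Meis2 (by 1.21 ± 0.25), both TALE homeodomain proteins, and the zinc finger protein Bnc2 (by 0.96 ± 0.14), which also fell at 10 against 2 months. These lists were read at 1 probe set per gene. Their changes share the young samples and the difference in control measures with those of the 10 factors.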

How the data were processed

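RNA from the pooled VTA of 5 mice per array was amplified from a small amount of total RNA in a two-cycle labelling protocol and hybridised to Affymetrix Mouse Genome arrays. The file deposited by the authors holds RMA-normalised log2 values, 1 per probe set and array. The submitters' processing notes give limma 3.4.5 besides RMA. Of 45101 probe sets, 64 controls were left out and 45037 tested. The annotation of the array named 34945 with 1 gene, 932 with several and 9160 with none, and it names no genome build. Promoter windows came from RefSeq (GRCm38.p6). Array medians lay between 6.11 and 6.21. Arrays have no read depth, and their number sets the precision.

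The 11 samples entered 1 fit in limma 3.58.1 (R 4.3.3, functions lmFit, contrasts.fit and eBayes), with 1 mean per age, no covariate and Benjamini-Hochberg adjustment over all probe sets. A probe set was called at an adjusted p under 0.05 and a change above 1.3-fold, the thresholds of the study. Errors of changes are standard errors. The fit was tested on simulated data. Averaging young arrays 3 and 4 followed a rule on near-identical arrays.

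Named were all 10 genes at all their probe sets, the 3 genes most like each, list genes that were called, and markers of other cells. The 10 genes and the 18 gene lists were chosen with earlier results of these data known. The lists were DA neuron function, midbrain patterning, other DA transcription factors, engrailed partners and targets, GABAergic, glutamatergic and serotonergic neurons, the red, subthalamic and mammillary nuclei, cerebellum, choroid plexus, ependyma, oligodendrocyte precursors, oligodendrocytes, astrocytes, microglia, vessels, neurons in general and immediate early genes. Alternatives changed the treatment of the arrays, covariates, filters, thresholds, prior and replicate block.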

Additional observations from a re-analysis of the deposited data

Results flagged for a closer look

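In 4 of the 38 sets of 4 arrays examined (19 probe sets at 10 and at 18 months), 1 array lay far from the other 3 by Dixon's criterion, which chance alone meets in about 1 of 20 sets. Foxa1 was 11.6 in 10-month array 1, where the median of that age was 11.3. Lmx1b (1441729_at) was 7.82 in 10-month array 3, against a median of 8.31. Nr4a2 (1433423_at) was 6.29 in 10-month array 2, against a median of 5.58. En1 was 7.01 in 18-month array 1, where the nearest of the others was 6.83. The 3 samples at 2 months are too few for this criterion.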

How the results depend on the processing

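Of 1308 changes of single probe sets under the alternatives, 1268 kept their side of the threshold, 36 were no longer called, 3 became called and 1 was reversed. Among the 1268, 60 values that were called in neither setting changed sign. At 18 against 2 months, the calls of the members (5) were 0 with the 3′ minus 5′ covariate, 0 with the poly-A covariate and 0 at an adjusted p under 0.01, and ran over 0 to 5 when 1 array was left out (0 without young array 1). Over all probe sets (3359) the counts were 0, 0 and 541, and 423 to 5326. The reversed value was that of Nr4a2 1433423_at, 0.13 with the 3′ minus 5′ covariate. The cause was not tested. Centring each array on its median kept the 5 calls of the members and gave 2528 higher and 927 lower probe sets, against 2047 and 1312.

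At 10 against 2 months, the members' count (0) was 1 with 12 separate arrays (Foxa2, −0.56) and 0 to 1 with an array left out. The count over all probe sets (613) was 977 with 12 separate arrays, 0 with the 3′ minus 5′ covariate, 2 with the poly-A covariate, 3 at an adjusted p under 0.01, 217 with an intensity trend and robust prior, 0 with only the ages compared, 1 to 1256 with 1 array left out, and 1276 without young arrays 3 and 4 together, an alternative chosen after seeing the data. At 18 against 10 months, the single probe set called was lost (0) with either covariate, at an adjusted p under 0.01 and with only the ages compared, and 0 to 2 were called with an array left out, with 0 members throughout. For unequal change in the intervals, 2 probe sets passed with 12 separate arrays and 0 to 0 with an array left out. The probe set differences (2) were 0 with the 3′ minus 5′ covariate and 0 to 2 with an array left out. The 3′ minus 5′ difference at 18 minus 2 months (−1.49) ran over −1.58 to −1.38 with an array left out.

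The deviations of arrays with the same replicate number had correlations of −0.61 to 0.43, against −0.69 to 0.77 for arrays with different numbers. These values showed no pairing by number, and a batch shared by number was not tested. The fit with the replicate number as a block used the 12 separate arrays. It called 3 members at 18 against 2 months, and over all probe sets 3 at 10 against 2 months and 0 at 18 against 10 months. The 12 separate arrays without the block gave 5 members, 977 probe sets and 1 probe set. Lmx1a and Sox6 1426018_a_at lay near the lower quartile of the arrays, where a change is hard to read.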

Other observations

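The markers of other cells in the dissected tissue were read at the brightest probe set of each gene at 18 against 2 months, where 8.82% of all genes were called. Of the cell type lists, microglial genes had the largest share that rose. Of 12 such genes 5 rose and 0 fell (median change 0.71). They were P2ry12 (1.58 ± 0.23), Cd68 (1.44 ± 0.29), Ptprc (0.99 ± 0.25), Ctss (0.69 ± 0.10) and Tmem119 (0.51 ± 0.14). Among those not called, Csf1r (−0.18 ± 0.22) and C1qb (−0.17 ± 0.40) had changes below 0. The mean of the list ran over 8.76 to 9.15 at 18 months, against 8.18 to 8.49 at 2 months. Of 11 genes of neurons in general 3 rose (Snap25, Syt1 and Stmn2) and 1 fell (Rbfox3, by 0.57 ± 0.15). Of 10 oligodendrocyte genes 2 rose (Ermn and Aspa), and 0 of 10 astrocyte genes and 0 of 7 genes of oligodendrocyte precursors were called, Pdgfra changing by 0.36 ± 0.15 (adjusted p = 0.161).

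In several lists of neighbouring regions and of other cell types 1 gene fell, where 3.06% of all genes fell. They were Irx3 (by 0.94 ± 0.14), 1 of 7 genes of the red, subthalamic and mammillary nuclei, Zic1 (by 1.21 ± 0.22), 1 of 8 cerebellar genes, Six3 (by 0.77 ± 0.16), 1 of 10 GABAergic genes, Neurod2 (by 0.52 ± 0.11), 1 of 6 glutamatergic genes, and Foxj1 (by 0.48 ± 0.10), 1 of 8 ependymal genes. Gad1, which marks GABAergic neurons, changed by 0.29 ± 0.17 (adjusted p = 0.326), and Slc17a6, which marks the glutamatergic neurons of the VTA, by 0.50 ± 0.23 (adjusted p = 0.212). Pou4f1, a gene of the red nucleus and habenula, changed by −0.65 ± 0.27 (adjusted p = 0.165), and the serotonin transporter Slc6a4 by −0.28 ± 0.62 (adjusted p = 0.832). Slc17a7, of cortical neurons, lay below the lower quartile of probe sets. Of 8 choroid plexus genes 1 rose (Clic6, 0.76 ± 0.19), and of 12 vessel genes 1 fell (Pdgfrb, by 0.72 ± 0.16). None of 12 immediate early genes, to which Nr4a2 is related by its response to activity, was called, and Fos changed by 0.27 ± 0.17 (adjusted p = 0.366).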
